A study of Rattus norvegicus with 17 samples.

Results

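Gene expression was compared between 9 individual rats that ate the same low calcium diet, to describe which genes of the colon mucosa differed most from animal to animal and which of them were high or low in the same animals. The 9 rats are those whose sample titles start with Low calcium, out of 17 in the series, and they are named here by the replicate number in the title (rats 1, 4, 5, 6, 7, 8, 11, 15 and 16). All 9 were females of the inbred Fisher 344 strain that carried the human transgenes HLA-B27 and β2-microglobulin, aged 8 to 10 weeks at the start and housed singly, on a purified Western-type diet with 30 mmol calcium per kg. The other 8 rats carried the same transgenes and differed in diet (120 mmol calcium per kg), and no comparison with them was made. Scraped colon mucosa of each rat gave 1 labelled RNA, hybridised in the red dye (Cy5) to 1 array beside the same green reference (Cy3), a pool of equal amounts of labelled RNA from all 17 rats, each rat's own included. A value below is the log2 ratio of a rat to that pool, so 1 unit is a doubling. No rat was hybridised a second time, so a difference between rats and a difference between their scrapings, RNA preparations or arrays cannot be told apart.

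HLA-B27 is a human class I histocompatibility molecule, and rats that carry it with human β2-microglobulin develop inflammation of the colon that depends on gut bacteria. The colon mucosa is a mixture of absorptive and mucus-secreting epithelial cells renewed from crypt stem cells, a supporting layer of fibroblasts and thin muscle, and immune cells that are partly gathered in lymphoid follicles. A scraping takes these in proportions that can differ from one animal to the next. Fewer cells of a type and less RNA per cell cannot be told apart in such samples.

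Of 41012 probes, 25002 gave a Cy5 signal well above background on 8 or 9 of the 9 arrays, and they represented 21288 genes or unnamed transcripts. Between 60% and 71.0% of probes were well above background on an array, with a median Cy5 signal of 147.4 to 172.0 over a median background of 45 to 53.5. Markers of the labelled tissue were present. Of 23 absorptive colonocyte genes on the array 21 were well above background, as were 14 of 15 goblet cell genes, among them Muc2, the main secreted colonic mucin. Of the markers of tissue outside the colon, 5 of 12 squamous epithelium genes, 8 of 14 skeletal muscle genes and 11 of 18 pancreas genes passed the same filter. The arrays of rats 8 and 16 stood apart before normalisation. With arrays only brought to a common median, without the loess step that removes a dye bias that changes with brightness, rat 8 was highest for 39 and rat 16 lowest for 41 of 43 gene lists. After loess rat 8 was highest for 12 and rat 16 lowest for 14 of them.

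Most genes differed little between the rats. The median SD of a probe between rats was 0.11 on the log2 scale, against 0.07 for the Cy3 channel, which held the same pool on every array. For 192 probes printed 10 times on each array the median SD was 0.042 between spots of one array and 0.12 between rats. In 74.3% of probes the Cy5 channel varied more than the Cy3 channel. Only 64 probes had an SD over 0.5 and 499 over 0.3, and in 9 of those 64 the SD of Cy3 was more than 0.5 times that of the ratio. Genes with more than 1 probe show how far such differences were reproduced on the same array. Among 65 of them with an SD over 0.3 the 2 brightest probes had a median r of 0.90 over the 9 rats, against 0.55 among all 2595.

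**Figure D1:**
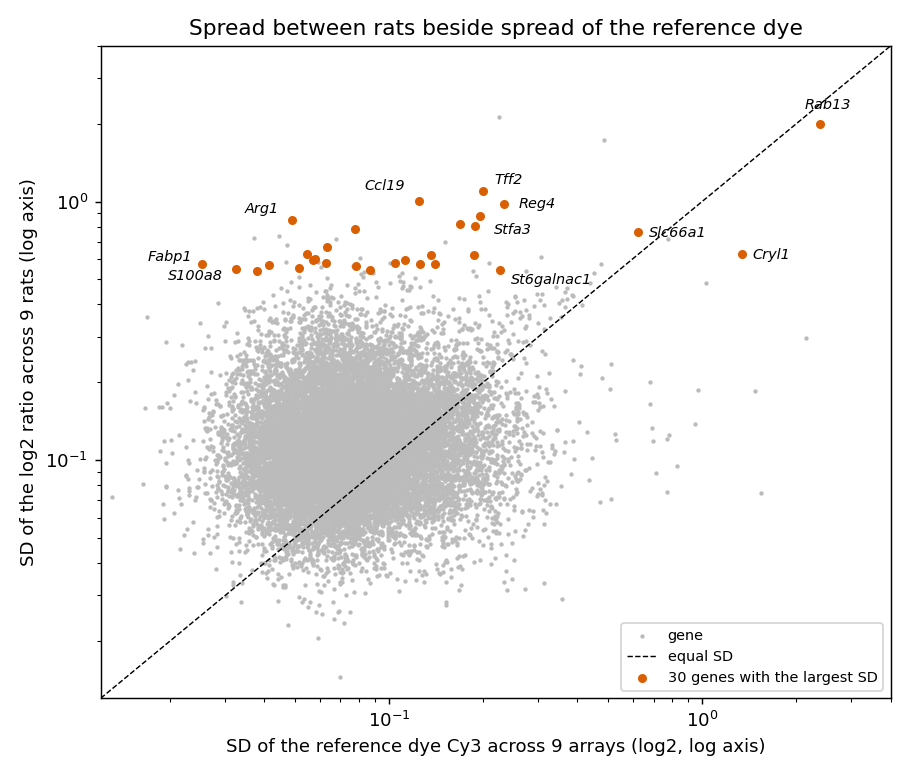
SD of the log2 ratio between the 9 rats (vertical, log axis) against SD of the reference dye Cy3 across the same 9 arrays (horizontal, log axis), 1 point per gene, with the 30 genes of largest SD in orange and the dashed line marking equal SD. Most orange genes lie far above the line, such as Tff2 (SD 1.1, Cy3 0.20) and Arg1 (0.85, Cy3 0.05), while Rab13 (2.00, Cy3 2.37) and Cryl1 (0.63, Cy3 1.34) lie below it.

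Set against probes of like signal, the variance between rats was called large for 8 of 25002 probes (0.032%, Benjamini-Hochberg adjusted p under 0.05). This was an upper-tail F test of the variance of a probe over the prior variance fitted by limma. Before adjustment 1414 of the 25002 probes had a p under 0.05 and 89 a p under 0.001. By chance alone a share of about 0.05 of probes would have a p under 0.05. The prior variance was itself fitted to these probes. The calls depended on the settings: no probe was called without background correction or with the scanner's processed signals, although the SD of Tff2 was 1.1 and 1.46 there, and without 1 rat the count was 3 (rat 8) to 13 (rat 1), with 5 without rat 4 or rat 16. Of the 8, Tff2, Ccl19, Reg4 and Stfa3 were spread over several rats, and the other 4 each rested on 1 rat. Rab13, a small GTPase, lay between 0.06 and 0.25 in 8 rats and at 6.14 in rat 8. Its SD was 0.05 without rat 8, and over the 9 arrays the SD was 2.37 in Cy3 and 0.38 in Cy5, so most of that ratio came from the reference channel. Stt3a, a subunit of oligosaccharyltransferase, had a probe at -4.09 in rat 8 with a Cy3 SD of 2.60, while its brightest probe had an SD of 0.08. The probe of LOC691075 was at -6.41 and that of TC535418 at -5.16, both in rat 16, while the other 8 rats lay between -0.16 and 0.02 for the one and between -0.16 and 0.11 for the other. In a comparison added after the data were seen, the Cy5 variance of a probe was set against the Cy3 variance fitted to probes of like Cy3 signal. It was not set against the Cy3 variance of the probe itself. There 4035 probes (16.1%) were called. The first test asks whether a gene varies more than other genes of its brightness, the second whether it varies more than the shared reference did for probes of like signal.

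The 30 named genes with the largest SD, of which 5 passed the test, are described by role below. Their SD ran from 2.00 to 0.54. The last to enter were Slc26a3 (SD 0.55) and Tac1 (0.54), and the first to stay outside were Cr2 and S100a9 (both 0.54). Slc66a1, a lysosomal amino acid transporter, and Cryl1, a crystallin-like dehydrogenase, were in the 30 through 1 rat each. Slc66a1 was at 2.25 in rat 4 and between -0.11 and 0.07 elsewhere, and Cryl1 was at -1.69 in rat 11. Without those rats their SDs were 0.057 and 0.21, in place of 0.76 and 0.63. Their SDs were 0.62 and 1.34 in Cy3 against 0.15 and 0.76 in Cy5, so the reference channel varied more than the channel of the rats. At the other end, among bright genes, Tmem256, Psme1, Dctn3, Cope and Rab28 had SDs of 0.028 to 0.036. For each of these 5 the highest rat was at most 1.09-fold above the lowest.

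**Figure D2:**
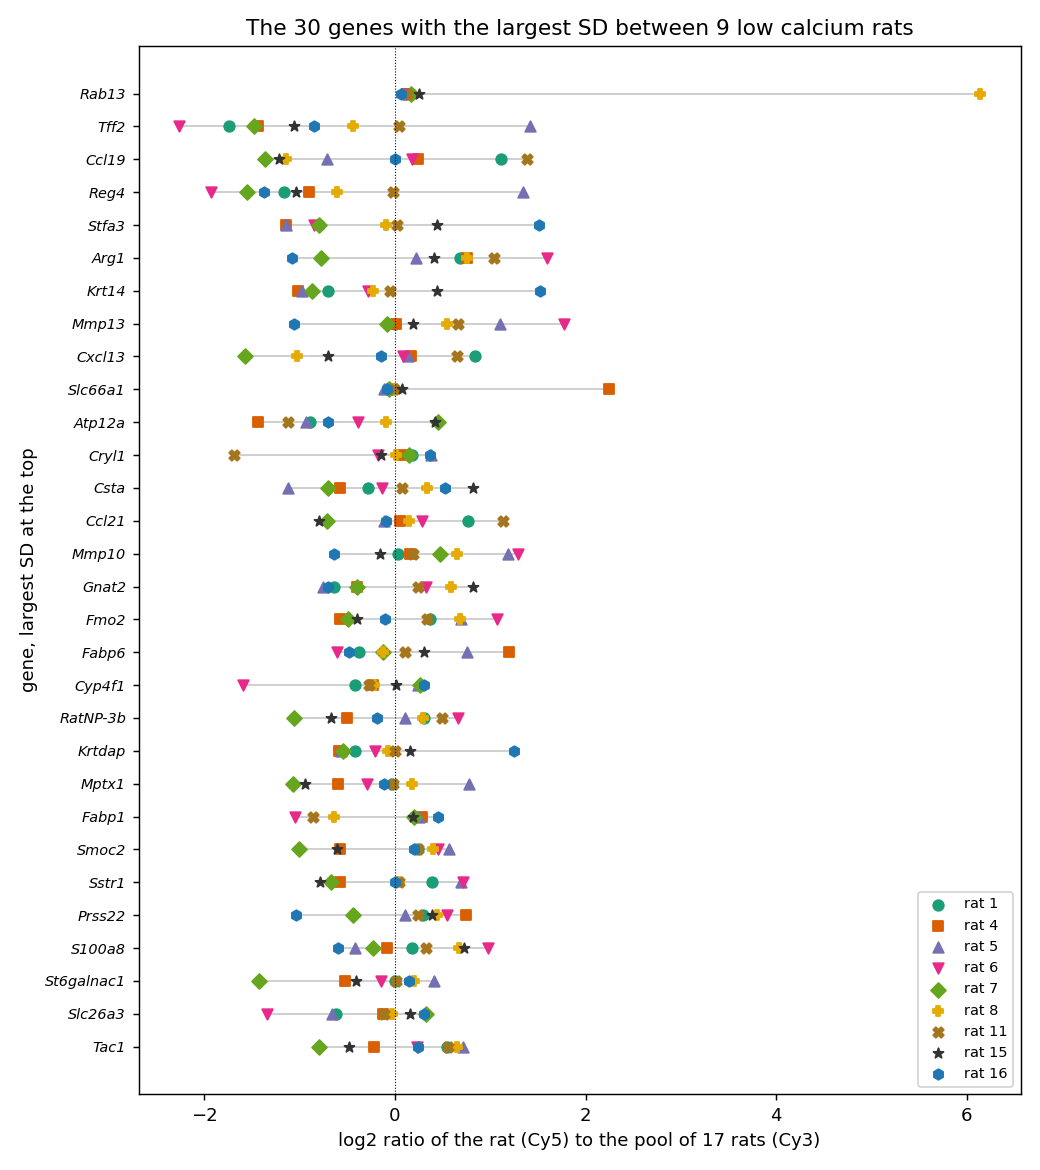
Log2 ratio to the pool (horizontal) of the 30 genes with the largest SD between rats (vertical, largest at the top), 1 symbol per rat and a grey line from lowest to highest. Rat 5 stands alone at the right for Tff2 (1.42) and Reg4 (1.35), rat 16 for Stfa3 (1.52), Krt14 (1.52) and Krtdap (1.25), and Rab13 and Slc66a1 each have 1 distant rat.

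Among secreted epithelial products, the genes that varied most were Tff2 and Reg4. Tff2 encodes a trefoil peptide of mucus-secreting cells, best known from the stomach. It was at -2.27 in rat 6, at a median of -1.06 and at 1.42 in rat 5, a 12.8-fold span (adjusted p = 0.016 by limma). Reg4, a secreted lectin-like protein of the Reg family, was at -1.93 in rat 6, at a median of -1.04 and at 1.35 in rat 5, a 9.70-fold span (adjusted p = 0.041 by limma). For both genes rat 5 was highest, rat 11 next (0.04 and -0.02) and rat 6 lowest. Without rat 5 the SD of Reg4 was 0.59 in place of 0.98, and that of Tff2 was at least 0.74 whichever rat was left out.

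The goblet cell genes had no common order of rats. The 14 tested genes of the goblet cell and mucus list had a median SD of 0.22, against 0.11 over all genes, but a mean pairwise r of 0.02, against 0.03 over all genes. St6galnac1, which builds the sialyl-Tn sugar of mucins, was at -1.42 in rat 7, at a median of 0.00 and at 0.41 in rat 5. Clca1, a goblet cell protease that processes mucus, was lowest in rat 6 (-1.09) and highest in rat 7 (0.02), and Zg16, a lectin of the mucus layer, was lowest in rat 5 (-0.33) and highest in rat 7 (0.57). Without rat 7 the SD of St6galnac1 was 0.31 in place of 0.55. Muc2 (SD 0.09) and Tff3 (0.16), named after their values were seen, were among the steadier members. The 15 tested genes of the antimicrobial protein list, which also held the transglutaminase Tgm3, gave a like picture, with a median SD of 0.23 and a mean pairwise r of 0.01. There Reg3b, a lectin that binds bacterial peptidoglycan, was at -0.43 in rat 6, at a median of 0.51 and at 0.71 in rat 5. S100g, the intestinal calcium-binding protein calbindin-D9k rather than an antimicrobial protein, was at -0.69 in rat 11, at a median of -0.07 and at 0.63 in rat 5.

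The genes of the absorptive colonocyte varied together more than most. Of 21 tested members 20 had an SD above the median of all genes, the median SD was 0.28 and the mean pairwise r 0.31. Atp12a, the colonic proton-potassium pump, ran from -1.44 in rat 4 through a median of -0.71 to 0.45 in rat 7, a 3.69-fold span. Slc26a3, the chloride-bicarbonate exchanger of the surface epithelium, ran from -1.34 in rat 6 through -0.12 to 0.33 in rat 7. Carbonic anhydrases Car1 and Car2, which supply bicarbonate and protons to such exchangers, were both lowest in rat 6 (-1.0 and -1.14) and highest in rat 16 (0.20 and 0.07). Guca2a, the hormone guanylin that drives fluid secretion, was low in rats 8 (-0.71), 11 (-0.70) and 6 (-0.65) and highest in rat 16 (0.22). As a list the colonocyte genes were lowest in rat 6 (mean deviation -0.27) and highest in rats 15 (0.28) and 7 (0.26). Aqp8, a water channel and classical surface marker, was named after its values were seen, with an SD of 0.05.

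Of the fatty acid and bile acid genes among the 30, all 3 were lowest in rat 6. Fabp1, the liver-type fatty acid binding protein, was at -1.04 in rat 6, at a median of 0.20 and at 0.45 in rat 16, and a second probe of it gave r = 0.995 with the first over the 9 rats. Cyp4f1, a fatty acid hydroxylase, was at -1.59 in rat 6 and between -0.41 and 0.31 in the other 8. Its SD was 0.28 without rat 6, in place of 0.58. Fabp6, the bile acid binding protein typical of the ileum, was highest in rats 4 (1.20) and 5 (0.75) and lowest in rat 6 (-0.61). The 24 tested genes of fatty acid oxidation and ketogenesis, Fabp1 among them, had a median SD of 0.12 and were lowest in rat 6 (-0.15) and highest in rat 7 (0.12). The 11 tested small intestine markers, Fabp6 among them, had a mean pairwise r of -0.05 and list means between -0.13 and 0.09.

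Among crypt and endocrine genes, those with the largest SD were low in rats 7 and 15, but their lists as a whole had another order. Smoc2, a matricellular protein expressed by crypt stem cells, was at -1.01 in rat 7, at -0.61 in rat 15 and at -0.57 in rat 4, and between 0.20 and 0.57 in the other 6 rats. A second probe of Smoc2 gave r = 0.98 with the first. Sstr1, a somatostatin receptor, ran from -0.78 in rat 15 and -0.67 in rat 7 through a median of 0.04 to 0.72 in rat 6. Tac1, the precursor of substance P and neurokinin A, ran from -0.79 in rat 7 through 0.24 to 0.71 in rat 5. Ascl2, a transcription factor of crypt stem cells, was at -0.59 in both rats 7 and 15 and highest in rat 6 (0.39). The 15 tested stem cell and Wnt target genes as a list had a median SD of 0.17 and a mean pairwise r of 0.13, with list means from -0.20 in rat 15 to 0.14 in rat 1 and -0.07 in rat 7. The 17 tested enteroendocrine genes had list means from -0.09 in rat 6 to 0.10 in rat 1, with rats 7 and 15 at -0.07 and rat 4 at 0.02.

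Genes that mark the position along the colon differed between rats as well. Hoxb13 and Hoxd13, homeobox genes of the most distal gut, were both lowest in rat 7 (-0.60 and -0.49), and were highest in rats 8 (0.50) and 6 (0.81). Hoxa9 was highest in rat 7 (0.48) and lowest in rat 5 (-0.56). The 6 tested posterior Hox genes had a median SD of 0.27 and a mean pairwise r of -0.07. Whether scrapings came from unlike positions was not tested.

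Lymphoid follicle genes formed a group in which rat 7 was low. Ccl19, a chemokine that draws T cells and dendritic cells into lymphoid tissue, was at -1.36 in rat 7, -1.22 in rat 15 and -1.15 in rat 8, at a median of 0.00, and at 1.12 in rat 1 and 1.39 in rat 11. Its 6.72-fold span passed the test (adjusted p = 0.047 by limma) and was spread over many rats, with an SD of 0.88 to 1.08 whichever rat was left out. Cxcl13, which draws B cells into follicles, was at -1.57 in rat 7, at a median of 0.09 and at 0.84 in rat 1. Ccl21, a partner of Ccl19 at the same receptor, ran from -0.80 in rat 15 through 0.05 to 1.13 in rat 11. The B cell genes Cr2 (complement receptor), Cd79b (antigen receptor signalling) and Fcmr (IgM receptor) were all lowest in rat 7, at -1.19, -0.86 and -0.88, and all highest in rat 1, at 0.71, 0.40 and 0.46. Fcer2, a low-affinity IgE receptor, was on the list too but was lowest in rat 5 (-0.64) and highest in rat 15 (0.22). Over the 10 tested B cell and follicle genes the median SD was 0.28, the mean pairwise r 0.25, and the list mean lay between -0.42 in rat 7 and 0.33 in rat 1. T and NK cell genes varied less, with a median SD of 0.15 over 25 genes and a list mean from -0.18 in rat 16 to 0.15 in rat 4. The correlation of the B cell and the T cell list means over rats was -0.25 (exact permutation p = 0.52, adjusted p = 0.62, n = 9) and rho was -0.35 (exact permutation p = 0.36), and without the 2 rats farthest from the median, 7 and 1, r was -0.06.

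Antibody transcripts had a different order of rats. Jchain, which joins IgA and IgM units, was at -0.41 in rat 15, at a median of 0.17 and at 0.82 in rat 5, and Mzb1, a plasma cell chaperone, was likewise lowest in rat 15 (-0.30) and highest in rat 5 (0.57). The SD of Cy3 was 0.67 and 0.71 times that of the ratio for these 2 genes, a larger share than for most genes described here. Among 39 probes whose descriptions name an immunoglobulin, chosen after the data were seen, the median SD was 0.26 and the mean deviation was lowest in rats 15 (-0.31) and 8 (-0.26) and highest in rat 5 (0.27). The probe for an IgA heavy chain ran from -1.50 in rat 8 to 0.72 in rat 5, and one for the kappa constant region from -1.26 in rat 8 to 0.85 in rat 5. The probe for an IgG1 constant region ran otherwise, from -0.73 in rat 7 to 1.02 in rat 5 and 1.35 in rat 6. Probes to near-identical immunoglobulin segments can bind the same transcripts, so their number says little. The B cell and plasma cell list means correlated at r = 0.61 (exact permutation p = 0.077, adjusted p = 0.20, n = 9) with rho 0.70 (exact permutation p = 0.043, adjusted p = 0.19), and at 0.70 without rats 7 and 1, which did not pass after adjustment.

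The mast cell chymases were low in rats 5 and 8 and high in rat 7. Mcpt4, a chymase, was at -0.85 in rat 8 and -0.78 in rat 5, at a median of 0.25 and at 0.43 in rat 7. Cma1, another chymase, ran from -0.64 in rat 8 through 0.13 to 0.47 in rat 7, and Mcpt1 and Mcpt9 were also highest in rat 7 (0.47 and 0.55). Tryptases did not share this order: Tpsab1 was lowest in rat 1 (-0.32) and highest in rat 8 (0.33), and Tpsb2 had an SD of 0.08, both named after their values were seen. The 14 tested mast cell and eosinophil genes had a median SD of 0.21 and a mean pairwise r of 0.41, with list means of -0.31 in rat 5, -0.24 in rat 8 and 0.29 in rat 7. Mast cell proteases are a family of near-identical genes, and probes may be shared between members.

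Several neutrophil and tissue-remodelling genes of large SD set rat 6 against rat 16, while other members of their lists did not. S100a8 and S100a9, which together form the neutrophil protein calprotectin, were highest in rat 6 (0.97 and 0.77) and rat 15 (both 0.72) and lowest in rats 16 and 5 (-0.60 and -0.42 for S100a8, -0.63 and -0.75 for S100a9). Further probes of S100a8 gave r of 0.93 and 0.83 with the brightest. RatNP-3b, a neutrophil alpha-defensin, did not follow them in rat 15, where it was at -0.67, and was lowest in rat 7 (-1.05) and highest in rat 6 (0.66). Cd177, also on the neutrophil list, was lowest in rat 7 (-0.58) and highest in rat 8 (0.27). Lcn2 and Csf3r of that list were highest in rats 7 and 1. For these 2 genes the SD of Cy3 was 1.04 and 1.22 times that of the ratio, so their order of rats says little. Arg1, an arginase of activated macrophages and other cells, was at -1.08 in rat 16 and -0.78 in rat 7, at a median of 0.68 and at 1.60 in rat 6. The collagenase Mmp13 ran from -1.06 in rat 16 through a median of 0.20 to 1.1 in rat 5 and 1.77 in rat 6, a 7.12-fold span. The stromelysin Mmp10 likewise ran from -0.64 in rat 16 to 1.19 in rat 5 and 1.29 in rat 6, and the gelatinase Mmp9 and stromelysin Mmp3 were also highest in rat 6 (1.26 and 1.14) and lowest in rat 16. The SD of Cy3 was 0.45 times that of the ratio for Mmp9 and 0.61 times for Mmp3. Other matrix proteases had another order. Plat, Mmp7, Mmp12 and Mmp14 were lowest in rat 5, and of these only Plat was highest in rat 6 (0.57). Prss22, a tryptase-like serine protease of epithelia, was at -1.04 in rat 16 and highest in rat 4 (0.74), and its SD was 0.35 without rat 16 in place of 0.55.

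The list means showed the contrast between rats 6 and 16 as well. Matrix proteases and neutrophil genes correlated at r = 0.78 over the 9 rats (exact permutation p = 0.014, adjusted p = 0.085 over 18 pairs of lists), with rho 0.42 (exact permutation p = 0.27). Without rats 6 and 16, the 2 farthest from the median, r was -0.01, so the relation rests on them. Neutrophil and macrophage list means correlated at r = 0.61 (exact permutation p = 0.079, adjusted p = 0.20, n = 9) with rho 0.52 (exact permutation p = 0.16), and at 0.43 without rats 16 and 6. Among macrophage genes the lipid-sensing receptor Trem2 varied most, from -0.27 in rat 1 through 0.32 to 0.92 in rat 6.

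The list mean of inflammatory cytokine and chemokine genes was instead lowest in rats 16 and 5, though not all members were low there. The neutrophil-attracting chemokines Cxcl3, Cxcl6 and Cxcl2 were all lowest in rat 5, at -0.66, -0.70 and -0.65, and Il1a, an alarm cytokine, was at -0.69 in rat 5, at a median of -0.01 and at 0.68 in rat 15. Ccl20, which draws dendritic cells and lymphocytes to the epithelium, ran from -0.35 in rat 5 to 1.08 in rat 7. Some other members of the list were not low in rat 5. Ccl7 was highest there (0.42), and Ccl2 was at 0.32 and Ccl5 at 0.18. Ccl7 and Ccl2 were lowest in rat 15 (-0.58 and -0.53). Over 21 tested genes the median SD was 0.23 and the mean pairwise r 0.25, and list means ran from -0.26 in rat 16 and -0.24 in rat 5 to 0.14 in rat 8. Against the list mean of absorptive colonocyte genes r was 0.18, and against that of goblet cell genes r was -0.31 (exact permutation p = 0.64 and 0.40, adjusted p = 0.67 and 0.56, n = 9, with rho 0.17 and -0.10, exact permutation p = 0.68 and 0.81, and r of -0.26 and -0.59 without the 2 farthest rats), so neither relation passed.

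Squamous epithelium genes showed the largest spread of any of the 43 lists. Krt14, a keratin of basal squamous cells, was at -1.02 in rat 4, at a median of -0.28, at 0.44 in rat 15 and at 1.52 in rat 16. Krtdap, a keratinocyte differentiation protein, and Lgals7, the squamous lectin galectin-7, had the same rat at the top, at 1.25 and 0.94 in rat 16 against medians of -0.21 and -0.09. Without rat 16 the SD of Krt14 was 0.52 in place of 0.82, and that of Krtdap 0.29 in place of 0.58. Stfa3, a stefin that inhibits cysteine proteases, was at 1.52 in rat 16, 0.44 in rat 15 and between -1.15 and 0.02 in the other 7, and passed the test (adjusted p = 0.034 by limma), with an SD of 0.59 without rat 16 in place of 0.88. Csta, a related stefin of cornifying epithelium, ordered the rats differently, with rat 15 at 0.82, rat 16 at 0.53 and rat 5 lowest at -1.12. The 5 tested squamous genes had a median SD of 0.49 and a mean pairwise r of 0.76, and without rat 16 the median SD was 0.29. Only 5 of 12 list members on the array were well above background, and Krt5 and Krt15 among them had SDs of 0.15 and 0.22.

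The list means of supporting tissue and smooth muscle varied in parallel. The 25 tested extracellular matrix genes had a median SD of 0.21 and a mean pairwise r of 0.35. Mgp, an inhibitor of calcification made by stromal cells, ran from -0.37 in rat 15 through a median of 0.42 to 0.88 in rats 6 and 11. Dcn, a collagen-binding proteoglycan, ran from -0.29 in rat 15 to 0.91 in rat 11, Fn1 (fibronectin) from -0.30 in rat 16 to 0.99 in rat 6, and the fibrillar collagens Col3a1 and Col1a1 reached 0.71 in rat 5 and 0.54 in rat 8. Among 14 smooth muscle genes Myl9 and Tagln, parts of the contractile apparatus, were both lowest in rat 15 (both -0.58) and highest in rat 8 (0.57 and 0.33). The mean pairwise r of that list was only 0.18. Casq2, Mylk and Tpm1 were highest in rat 7, and Actg2, Des and Synm in rat 6. The SD of Cy3 was 1.01, 1.07 and 0.88 times that of the ratio for Casq2, Actg2 and Tpm1. It was 0.59 times for Synm, 0.48 for Des and 0.40 for Mylk. The list means of matrix and smooth muscle correlated at r = 0.87 over the 9 rats (exact permutation p = 0.0012, adjusted p = 0.021 over 18 pairs), with rho 0.85 (exact permutation p = 0.0061, adjusted p = 0.11). The relation kept r = 0.71 without rats 15 and 16 and lay between 0.79 and 0.94 when single rats were left out, but it no longer passed without rat 8 (0.85), 15 (0.79) or 16 (0.88). With slide means removed r was 0.98 over the 8 rats that shared a slide with another, where 0.125 is the smallest p that could be reached. Enteric neuron and glia genes gave r = -0.27 with smooth muscle (exact permutation p = 0.46, adjusted p = 0.59, rho -0.42 with p = 0.27, and r = -0.35 without rats 8 and 15).

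Interferon-stimulated genes were low in rat 16 as a group. Of 27 tested members 23 had an SD above the median of all genes, the median SD was 0.19 and the mean pairwise r 0.49, and list means ran from -0.30 in rat 16 and -0.12 in rat 5 to 0.14 in rat 7. Rsad2, the antiviral enzyme viperin, ran from -0.20 in rat 5 through 0.08 to 0.92 in rat 7. Bst2 (tetherin), which holds virus particles at the cell surface, was at -0.86 in rat 16, at a median of -0.14 and at 0.22 in rat 4. Ifit2, Isg15 and Ifit1 were at -0.60, -0.49 and -0.44 in rat 16, which was their lowest rat except for Isg15, lowest in rat 5 (-0.58). The list mean correlated with that of class I histocompatibility and peptide loading genes at r = 0.82 (exact permutation p = 0.0034, adjusted p = 0.031 over 18 pairs), with rho 0.77 (exact permutation p = 0.021, adjusted p = 0.19) and r = 0.60 without rats 16 and 5. It stayed between 0.77 and 0.86 without any 1 rat, but passed the threshold only without rat 1 or 6. The class I genes themselves varied little and had little common order, with a median SD of 0.12 and a mean pairwise r of 0.10 over 12 genes. Tap1, a peptide transporter of this pathway, was at -0.59 in rat 16 and at 0.04 in rat 8. Class II genes gave r = 0.39 with the interferon list (exact permutation p = 0.30, adjusted p = 0.50, n = 9), with rho 0.42 (exact permutation p = 0.27), and r was near 0 without the same rats.

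**Figure D3:**
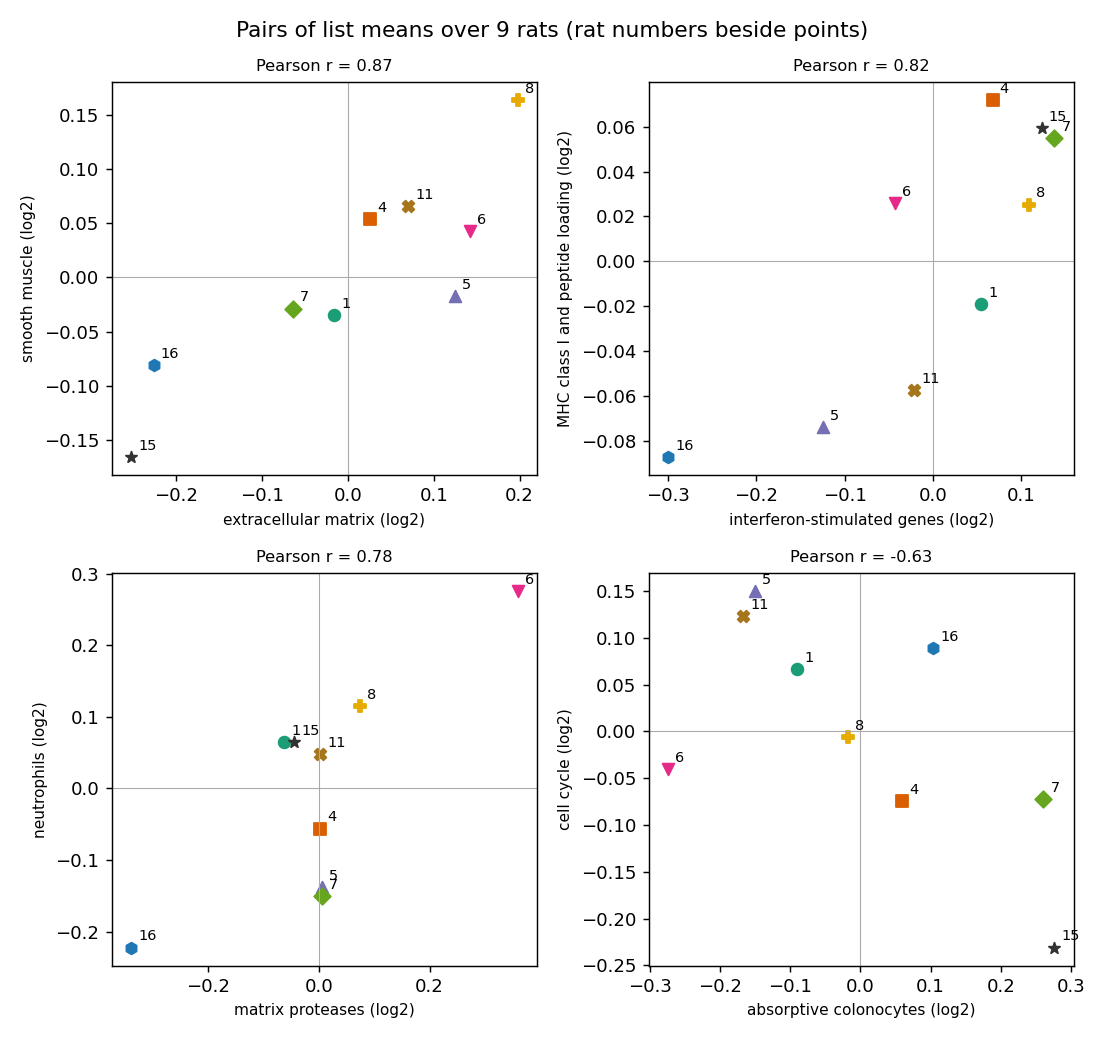
List means by rat (log2 ratio minus the mean of the 9 rats) for 4 pairs of gene lists, with rat numbers beside the points. Matrix against smooth muscle (r = 0.87) and interferon-stimulated against class I genes (r = 0.82) passed after adjustment, while matrix proteases against neutrophils (r = 0.78) rests on rats 6 and 16 and absorptive colonocyte against cell cycle genes (r = -0.63) did not pass.

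The promoters of interferon-stimulated and heat shock genes are shown because members of these lists correlated more than most genes. Their mean pairwise r was 0.49 and 0.38, against 0.03 over all genes, and some other lists had a higher r. Single members could still differ: in rat 15 Rsad2 was at 0.51 and Bst2 at -0.54. Whether members with a motif shared an order of rats was not tested. The stretches are from RefSeq (GRCr8), lie within the 250 bases before the annotated start, and run 5′ to 3′ on the gene's strand with the motif in capitals. The interferon-stimulated response element was searched as TTTC, NN and TTTC in a row, on both strands, and it was present in 14 of 21 list members with a promoter in the table (66.7%), against 3.02% of the promoters of all 8961 tested genes that had one. Rsad2 (chr6:48788228-48788297, minus strand) and Bst2 (chr16:18255059-18255128, minus strand) are the members with the largest SD that hold it.
Rsad2: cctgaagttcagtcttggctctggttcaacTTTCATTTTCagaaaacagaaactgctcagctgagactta
Bst2: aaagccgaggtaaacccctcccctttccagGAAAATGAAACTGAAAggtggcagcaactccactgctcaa
The heat shock element was searched as the units TTC, GAA and TTC with NN between neighbours, on both strands, and it was present in 4 of 11 heat shock list members (36.4%), against 0.435% of the same promoters. The 4 are Hspa8 (chr8:50080272-50080341, plus strand), Hsph1 (chr12:10427298-10427367, plus strand), and Hspe1 (chr9:64084233-64084302, plus strand) with Hspd1, which start from the same stretch on opposite strands and so share 1 site.
Hspa8: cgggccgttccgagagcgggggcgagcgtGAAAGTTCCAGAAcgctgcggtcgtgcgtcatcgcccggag
Hsph1: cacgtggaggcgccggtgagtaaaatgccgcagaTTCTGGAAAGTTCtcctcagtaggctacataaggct
Hspe1: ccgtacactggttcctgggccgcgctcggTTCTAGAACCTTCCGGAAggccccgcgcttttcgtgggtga
These matches describe the letters in the window and do not show that a factor bound there. Cy3 varied 1.22 times as much as the ratio for Hspe1, whose own values are therefore not described.

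Heat shock genes were high in rats 1 and 5 and low in rats 15 and 8. Of 13 tested members 12 had an SD above the median of all genes, the median SD was 0.29 and the mean pairwise r 0.38. Hspa8, the constitutive Hsp70 chaperone, was at 0.75 in rat 1 and 0.77 in rat 5, at a median of -0.08, and at -0.58 in rat 15 and -0.74 in rat 8. Its co-chaperone Dnaja1 and the chaperone Hsp90ab1 were likewise highest in rat 5 (0.49 and 0.61) and lowest in rats 8 and 15 (-0.51 and -0.36). Hspa1a, the inducible Hsp70, differed in being at 1.20 in rat 1 and only 0.24 in rat 5. The list mean of immediate early genes was lowest in rat 5 (-0.19) and highest in rat 8 (0.17), and its correlation with the heat shock list mean was -0.36 (exact permutation p = 0.33, adjusted p = 0.50, n = 9, rho -0.48 with p = 0.19, and r = -0.23 without rats 5 and 16).

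In some lists the members correlated with each other more than in most. Cell cycle genes had a median SD of 0.15, with 26 of 32 above the median of all genes, and a mean pairwise r of 0.58 over 32 genes, with list means from -0.23 in rat 15 to 0.15 in rat 5. Cdk1, the kinase that starts mitosis, was at -0.53 in rat 15, at a median of -0.16 and at 0.19 in rat 16, and Top2a, which untangles replicated DNA, at -0.42 in rat 15 and 0.27 in rat 11. The cell cycle homology region, searched as TTTGAA on both strands, was present in 9 of 25 of their promoters (36.0%), against 11.0% of all. Cell cycle and absorptive colonocyte list means correlated at r = -0.63 (exact permutation p = 0.069, adjusted p = 0.20, n = 9) with rho -0.58 (exact permutation p = 0.11), and at -0.14 without rats 15 and 7. Hypoxia targets had a median SD of 0.22 and a mean pairwise r of 0.52, with rat 15 highest (0.22) and rats 5 (-0.28) and 16 (-0.23) lowest. In that list Nppb, the precursor of a natriuretic peptide, ran from -0.46 in rat 16 to 0.97 in rat 6, and Ero1a, an oxidase of protein folding, from -0.61 in rat 16 to 0.36 in rat 6. Cholesterol synthesis genes had a mean pairwise r of 0.52 with rat 8 highest (0.25) and rat 4 lowest (-0.19). Fdft1, squalene synthase, ran there from -0.35 in rat 1 to 0.50 in rat 8. Their list mean had r = -0.10 with that of fatty acid oxidation and ketogenesis genes (exact permutation p = 0.81, adjusted p = 0.81, n = 9, rho 0.02 with p = 0.98, and r = -0.09 without rats 8 and 4).

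Ribosomal protein genes had a mean pairwise r of 0.72, with rat 16 highest (0.25) and rat 8 lowest (-0.28), an order that was turned round without loess (-1.50 in rat 16 and 1.37 in rat 8 under median centring). The extremes also depended on other settings. Rat 1 was highest and rat 15 lowest without background correction and with the scanner's processed signals, and the lowest was rat 15 with Cy5 alone and rat 7 in the deposited log2 table. In these 4 settings rat 16 was between 0.081 and 0.11 and rat 8 between -0.14 and -0.074. Rps6 of the small subunit, for instance, was at 0.17 in rat 8, at a median of 0.70 and at 1.02 in rat 16. Red blood cell genes were set apart by rat 5, with a list mean of 0.41 against at most 0.04 in the others, and Hbb-b1, a beta globin, was at 0.60 and Alas2, the first enzyme of haem synthesis in red cells, at 0.53 in rat 5. Without rat 5 the median SD of these 5 genes was 0.13 in place of 0.22. At the steady end the lists for skeletal muscle (0.08), enteric neurons and glia (0.09), oxidative phosphorylation (0.10) and pancreas (0.10) had median SDs below that of all genes.

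**Figure D4:**
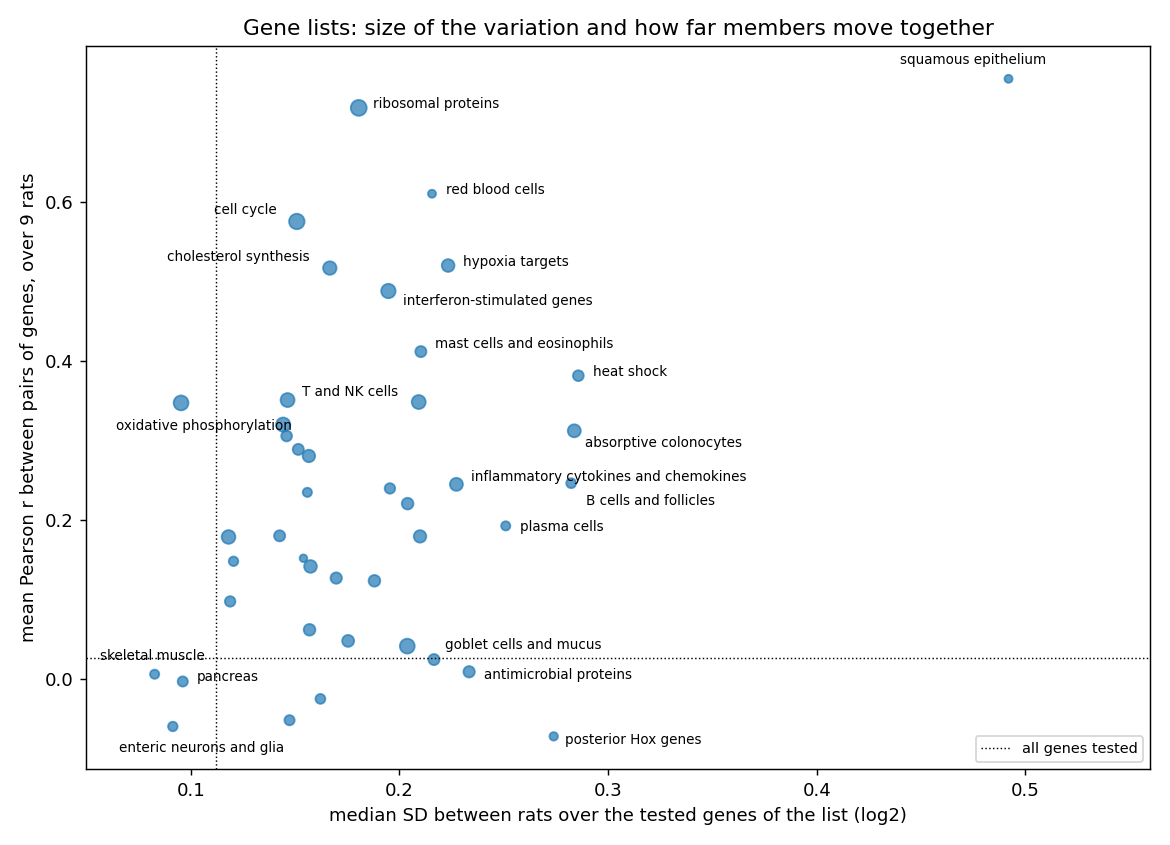
Median SD between rats (horizontal, log2) against the mean Pearson r between pairs of member genes over the 9 rats (vertical) for 43 gene lists, with larger points for longer lists and dotted lines at the values of all genes tested (0.11 and 0.03). Squamous genes stand alone at upper right (0.49 and 0.76), ribosomal protein (0.18 and 0.72) and cell cycle genes (0.15 and 0.58) have high r at a lower SD, and posterior Hox, goblet cell and antimicrobial genes combine larger SD with r near 0.

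Across the 43 lists, 8 had a median SD over 2 times that of all genes: squamous epithelium, heat shock, absorptive colonocytes, B cells and follicles, posterior Hox genes, plasma cells, inflammatory cytokines and antimicrobial proteins. In 15 lists the mean pairwise r was over 0.3. Of 679 tested genes on at least 1 list 2, Tff2 and Reg4, had called variance (0.295%), against 0.032% of all probes. The members of a list were chosen for known function, and neither their SDs nor their correlations were tested as a set.

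**Figure D5:**
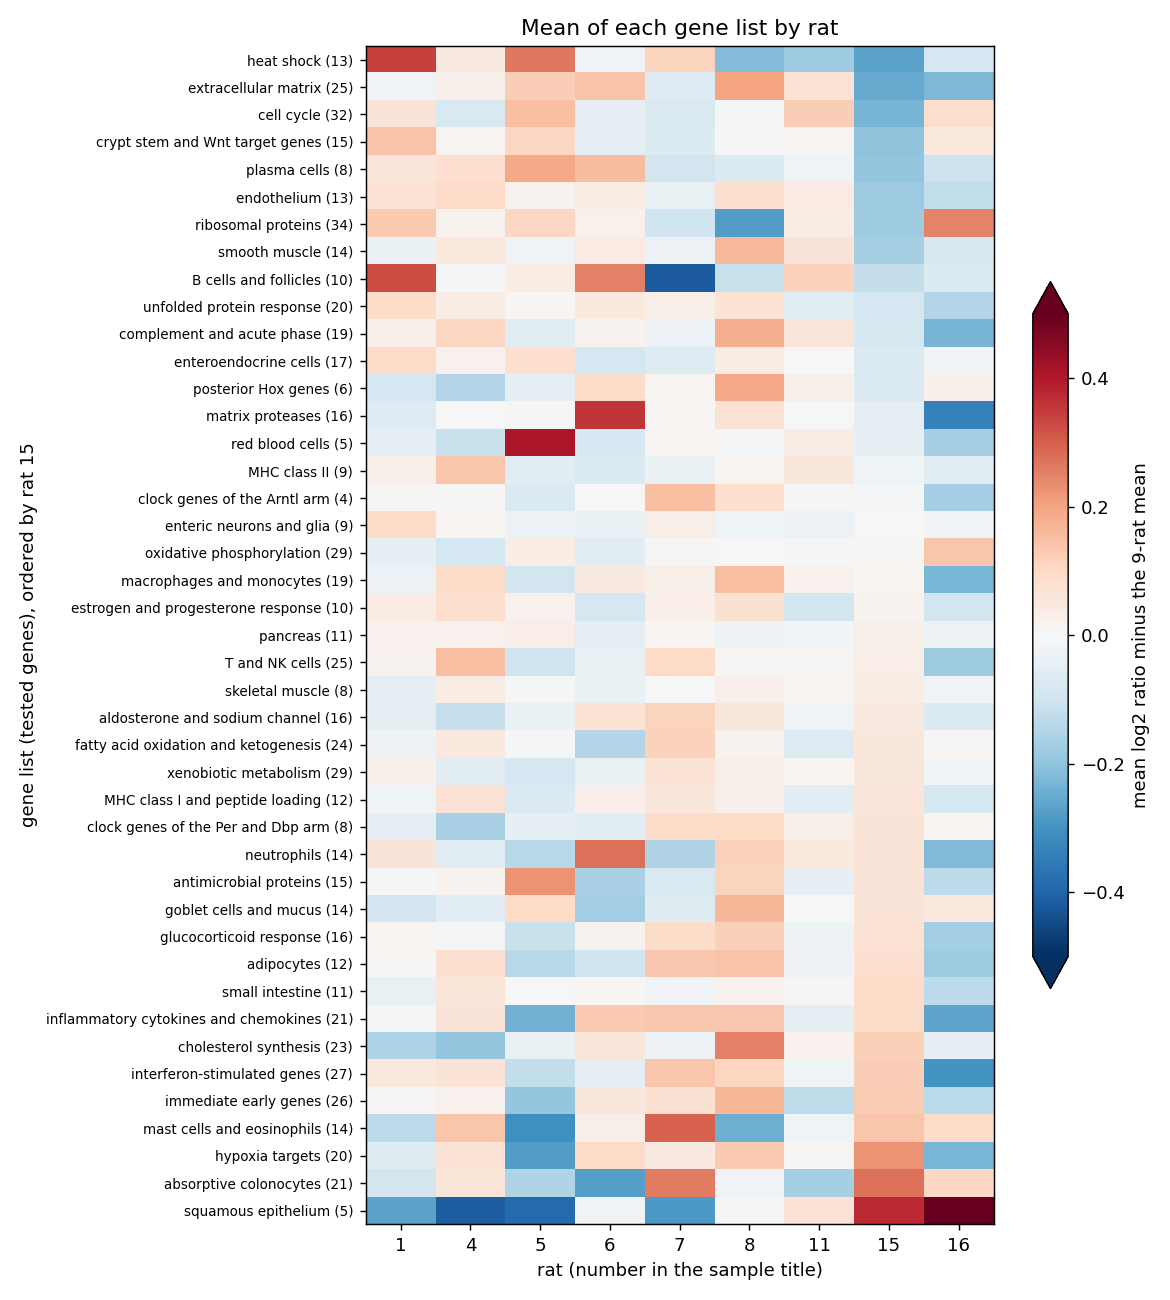
Mean of each of 43 gene lists (rows, number of tested genes in brackets, ordered by rat 15) in each of 9 rats (columns), as log2 ratio minus the mean of the 9 rats, with colours ending at 0.5 in either direction. Rat 16 is high for squamous genes (0.93) and low for matrix proteases (-0.34), rat 6 is high for matrix proteases (0.36), rat 5 for red blood cell genes (0.41), and rat 7 is low for B cell genes (-0.42).

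Genes were also grouped without lists. The rule set for this, genes with called variance, left 7 genes and no group of 10, so the 500 genes with the largest SD whose Cy3 SD was under 0.5 times that of the ratio were used instead, a choice made after seeing the data. Average linkage on 1 minus r, taken at a height of 0.4, put 453 of them in 14 groups of 10 to 80 genes. Since the groups were made from these correlations, their mean pairwise r of 0.70 to 0.83 is a description only. The largest group, of 80, was highest in rat 15 (mean deviation 0.43) and lowest in rat 5 (-0.51). It was led by Abhd2, Ndnf, Rnd1, Rnd3 and Itgb6, of which Rnd1 and Rnd3 are GTPases acting on the cytoskeleton and Itgb6 an integrin of injured epithelium, and it held 4 of the inflammatory cytokine genes. The second, of 74, was lowest in rat 1 (-0.63), and only 17 of its members carry a gene name, among them Myo5c, Rac1 and Srsf5. A group of 59 with Hmox1, S100a8, Anxa3 and Upp1 was highest in rat 6 (0.46) and lowest in rat 16 (-0.53). Hmox1 degrades haem, and Upp1 breaks down uridine.

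A group of 46 with Wfdc2, Smoc2, Foxa2 and Sstr1 was lowest in rats 7 (-0.65) and 15 (-0.39). It also held the B cell genes Cd79b, Cr2 and Fcmr. A group of 38 with Hsp90aa1, Hspa8 and Chordc1 was highest in rat 5 (0.51) and lowest in rat 15 (-0.50), and 6 of its 11 named genes are on the heat shock list. A group of 24 led by Fn1 and Hoxb13 held 3 matrix proteases and had rat 6 at 0.54 and rat 16 at -0.35. A group of 23 with Mcpt1 and Mcpt9 was highest in rat 7 (0.52) and lowest in rat 5 (-0.48), and it included Ccl25, a chemokine of the gut epithelium. A group of 20 with Car2, Slc9a3 and Car1, genes of salt absorption and pH, was lowest in rat 6 (-0.71). A group of 15 with Mgp, Col1a1 and Igfbp3 was lowest in rat 15 (-0.54). A group of 12 with Ces1e, Slc4a4 and Selenbp1 was also lowest in rat 6 (-0.57). A group of 11 led by immunoglobulin probes was lowest in rat 8 (-0.88), and a group of 10 with Stfa3, Krt14 and Lgals7 was highest in rat 16 (0.99). Other ways of grouping the 500 genes gave 12 to 16 such groups.

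Of the remaining genes among the 30, Gnat2, the name the array design gives to a cone transducin subunit, ran from -0.75 in rat 5 through -0.39 to 0.82 in rat 15, and a second probe gave r = 0.99 with it. Fmo2, a flavin-containing monooxygenase, ran from -0.58 in rat 4 through 0.34 to 1.07 in rat 6. Mptx1, a mucosal pentraxin of the large intestine, ran from -1.07 in rat 7 and -0.94 in rat 15 through -0.11 to 0.78 in rat 5.

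The rats also differed in how often they were extreme. Among 384 genes with an SD over 0.3 and a Cy3 SD under 0.5 times it, rat 5 was lowest for 85 and highest for 54, rat 15 highest for 74 and lowest for 47, and rat 8 highest for 74. Rat 11 was highest for 9 and lowest for 4, and its median absolute deviation from the mean of the 9 was 0.12, against 0.38 in rat 5 and 0.36 in rat 15. The first principal component of 24912 tested probes with values in all 9 rats held 30.5% of the variance and ran from rat 5 (-17.5) and rat 1 (-11.8) to rats 7 (10.8), 8 (11.3) and 15 (21.1). The next 2 held 17.1% and 14.6%. Neither of the first 2 components passed a test of correlation with median Cy5 signal, Cy5 background or the share of probes above background (6 relations, exact permutation, smallest adjusted p = 0.53, r between -0.51 and 0.49). The first had r = 0.49 with Cy5 signal (rho 0.57, and 0.29 without the 2 farthest rats) and -0.51 with the share of probes above background (rho -0.45, and 0.01 without those 2). The 9 arrays lay on 5 slides, and rat 1 shared a slide with none of the others. Pairs of rats on 1 slide differed by a median of 0.38 (4 pairs, 0.31 to 0.48) over 385 variable genes, and pairs on different slides by 0.39 (32 pairs).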

How the data were processed

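Colon mucosa RNA of 9 rats was measured on 2-colour Agilent arrays. The deposited files hold, per the file headers, mean spot and median background intensities from Agilent Feature Extraction 9.5.1.1 (9.5 in the submitters' processing notes), not yet normalised. A deposited table of log2 values by the authors, with its scale, centring and direction unstated, served as an alternative. In limma 3.58.1 (R 4.3.3) both dyes were background corrected (normexp, offset 50), normalised by loess within arrays with control and outlier spots at weight 0, and spots of a probe averaged. Probes well above background on 8 or more arrays were kept, and a gene is its brightest such probe. The variance of each probe (8 residual degrees of freedom) was tested against a prior variance (robust, with a trend on signal), with adjustment over all probes. Of 41012 probes 20912 keep the array's own name, and the others were named through RefSeq (GRCr8). List means were correlated by exact permutation over all orders of the rats. The genes named were the 30 with the largest SD, up to 8 leading genes of each group, up to 5 of largest SD in each list, and the 5 steadiest bright genes, and others were chosen after their values were seen. The members and lists were chosen with earlier results of these data known. Alternatives covered background, scaling, channel, filter, prior, slide and each rat left out. The number of arrays limits the precision.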

Additional observations from a re-analysis of the deposited data

Results flagged for a closer look

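For 15 of 125 named genes with values in all 9 rats and 1 of 43 list means, a single rat stood apart, with a gap to the next rat that was large against the whole range (Dixon's test at its 95% critical value). Chance flags about 1 in 20 such groups, and over all genes with 9 values 8.17% were flagged. Several of these genes were named because 1 rat made their SD large.

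In rat 16 the probe of LOC691075 was at -6.41 and that of TC535418 at -5.16, where the next lowest rats were at -0.16 for both. The squamous genes Krtdap and Lgals7 were at 1.25 and 0.94 in rat 16, where rat 15 followed at 0.16 for both. Rab13 was at 6.14 in rat 8, Slc66a1 at 2.25 in rat 4 and Cryl1 at -1.69 in rat 11, each with a large SD in the reference dye.

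Rat 6 stood apart for Cyp4f1 (-1.59), the distal homeobox gene Hoxd13 (0.81) and the stromelysin Mmp3 (1.14). For Mmp3 the SD of Cy3 was 0.61 times that of the ratio. Rat 1 stood apart for the inducible chaperone Hspa1a (1.20, next 0.49) and for Myo5c, a myosin of secretory epithelium (-1.30, next -0.28). Rat 5 was at 0.53 for Alas2 and at 0.41 for the mean of the red blood cell list, where no other rat was above 0.04. Rat 15 was at -0.58 for the smooth muscle gene Tagln, and rat 7 at 0.10 for Aqp8, a small difference beside the SD of 0.11 of a typical gene.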

How the results depend on the processing

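The count of probes with called variance (8) was 15 with a normexp offset of 0, 97 with median centring, 23 without the filter on dim probes, 71 with slide as a block, 5 with Cy5 alone or no trend, 4 with a prior that was not robust, 0 without background correction or with signals as the scanner software processed them, and 3 to 13 without 1 rat. It was 4035 with Cy5 variance against the fitted Cy3 variance of probes of like signal. List members called (2) were 4 with offset 0, without the dim filter or with the deposited log2 table, 10 with median centring, 21 with slide as a block, 1 with Cy5 alone or no trend, 0 without background correction, with processed signals or with a prior that was not robust, and 1 to 4 without 1 rat. Lists with a median SD over 2 times that of all genes (8) were 5 with processed signals or no dim filter and 7 to 11 without 1 rat. Pairs of lists past the threshold (2) were 17 with median centring, 1 with offset 0, Cy5 alone or no dim filter, and 0 to 2 without 1 rat. Groups of 10 or more genes (0 by the original rule) were 14, 16, 12 and 13 among the 500 genes by the rule used, at a height of 0.3, by Spearman correlation and with slide means removed. Matrix against smooth muscle gave r = 0.982 with slide as a block, where the test could not pass, and 0.795 to 0.937 without 1 rat. Interferon-stimulated against class I genes no longer passed with offset 0 (0.791), Cy5 alone (0.802), no dim filter (0.811) and slide as a block (0.935), and gave 0.770 to 0.857 without 1 rat.

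Signs were reversed for correlations that had not passed. With median centring these were smooth muscle against absorptive colonocyte genes (0.912), goblet against inflammatory genes (0.944), colonocyte against cell cycle genes (0.870), B against T cell genes (0.735, and -0.45 to 0.034 without 1 rat, the latter without rat 7), cholesterol synthesis against fatty acid oxidation (0.960), immediate early against heat shock genes (0.914) and mast against goblet cell genes (0.694). Smooth muscle against enteric genes gave 0.393 with processed signals and 0.589 without the dim filter. Cholesterol synthesis against fatty acid oxidation gave 0.105 with Cy5 alone, 0.0013 with the deposited log2 table, 0.035 without rat 4 and 0.037 without rat 6, with -0.23 as the lowest value without 1 rat. The 2 arms of clock genes gave -0.12 without background correction, -0.27 with Cy5 alone, -0.89 with slide as a block and -0.075 with the deposited log2 table. Adipocyte against smooth muscle genes gave -0.030 without background correction, -0.083 with Cy5 alone and -0.10 to 0.54 without 1 rat, negative without rat 8. The cause was not tested. Of the other values, 698 of 817 list medians and 483 of 569 gene SDs moved by less than the standard error of an SD over 9 rats. No paired analysis was possible because a single group was described.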
